A study of Mus musculus with 16 samples.

Results

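The genes described here are 36 genes that mark vascular endothelial cells, the cells that line blood vessels. They were chosen as a list of symbols for their known expression in endothelium, with earlier results of these data known. They were read from arrays of whole mouse sciatic nerve. Of the 36 genes, 34 were measured, each on 1 transcript cluster (a set of probes summarized to 1 value), among 19505 genes with a symbol. *Egfl7* and *Rasip1* were not found under their symbol in the annotation used and were not analysed here. The study asked what the loss of Beclin 1 in Schwann cells does to the nerve, and its arrays form 4 groups of 4. The *Becn1* cKO nerves came from *Becn1* fl/fl mice carrying a Cre recombinase active in Schwann cells from before birth, at P10 (postnatal day 10) and at 2 months of age. The control nerves, labelled wild-type, were taken at the same ages, and per the study's methods controls carried floxed *Becn1* without Cre. The endothelial cells of cKO nerves were thus not the cells targeted. The labels do not say whether an array holds 1 animal or several, so the p-values measure the spread between these samples, which may be technical.

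Values are log2 RMA values, the signal of a transcript cluster after the robust multiarray average of the study, and a difference of 1 is a 2-fold difference in signal. Medians of the 16 arrays lay between 6.50 and 6.58, and correlations between arrays were 0.976 to 0.994 within groups and 0.933 to 0.978 between groups. *Becn1*, the targeted gene, was 8.26 ± 0.11 (SD, n = 4) in cKO nerves and 8.61 ± 0.09 in control nerves at P10, a log2 change of -0.35 (limma adjusted p = 0.0397), and 8.19 ± 0.06 in cKO nerves and 8.45 ± 0.07 in control nerves at 2 months, a change of -0.26 (adjusted p = 0.0312). Leaving out any single array other than cKO replicate 4 ended this call at P10 (adjusted p up to 0.131), and leaving out cKO replicates 3 or 4 or control replicates 1, 2 or 3 ended it at 2 months (up to 0.102). The nerve also holds cells without Cre, so *Becn1* is a limited check of the labels. The mean of 10 skeletal muscle genes, which are not genes of the nerve, ran from 6.90 to 11.73 among control arrays at P10, with replicate 4 the highest.

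Endothelial cells of peripheral nerve form the endoneurial capillaries, whose tight junctions are part of the blood-nerve barrier, and the vessels of the outer nerve sheaths. They grow and survive in response to VEGF, bound by the receptors of *Kdr* and *Flt1*, and to angiopoietins, bound by the receptor of *Tek*, and their identity is held by transcription factors of the ETS and SOX families. In whole nerve, fewer endothelial cells, less RNA per endothelial cell and a larger share of RNA from other cells cannot be told apart.

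Endothelial genes were lower in cKO nerves at P10. Of the 34 genes, 19 fell and none rose at an adjusted p under 0.05, while 7.44% of all genes tested were called lower and 5.48% higher. The median log2 change of the 34 genes was -0.53, against 0.002 over all genes, and single changes ran from -2.16 to 0.10. In 22 of the 34 genes every cKO array lay below every control array, which 9.14% of all genes did. At 2 months 13 of the 34 genes fell and *S1pr1* rose, beside 15.5% of all genes called lower and 18.5% called higher. The median change was then -0.26, against -0.02 over all genes, and changes ran from -3.09 to 0.87. The arrays of 10 genes lay wholly below the controls at 2 months, where 15.5% of all genes did, and those of *S1pr1* wholly above, where 17.8% did. The mean over the 34 genes was 7.12, 7.0, 7.03 and 7.10 in the cKO arrays at P10, against 7.51, 7.82, 7.51 and 7.69 in the control arrays. At 2 months it was 6.51, 6.49, 6.27 and 6.39 in cKO arrays, against 6.64, 6.74, 6.81 and 7.10 in control arrays. The cKO arrays lay below the control arrays at both ages, with a narrower gap between these means at 2 months. Gene by gene, a difference of the cKO effect between the ages was called for 5.88% of the 34 genes, against 12.3% of all genes. Without control replicate 4 at P10, the array highest in skeletal muscle genes, 17 of the 34 genes were lower and none higher at P10, with a median change of -0.53.

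**Figure D1:**
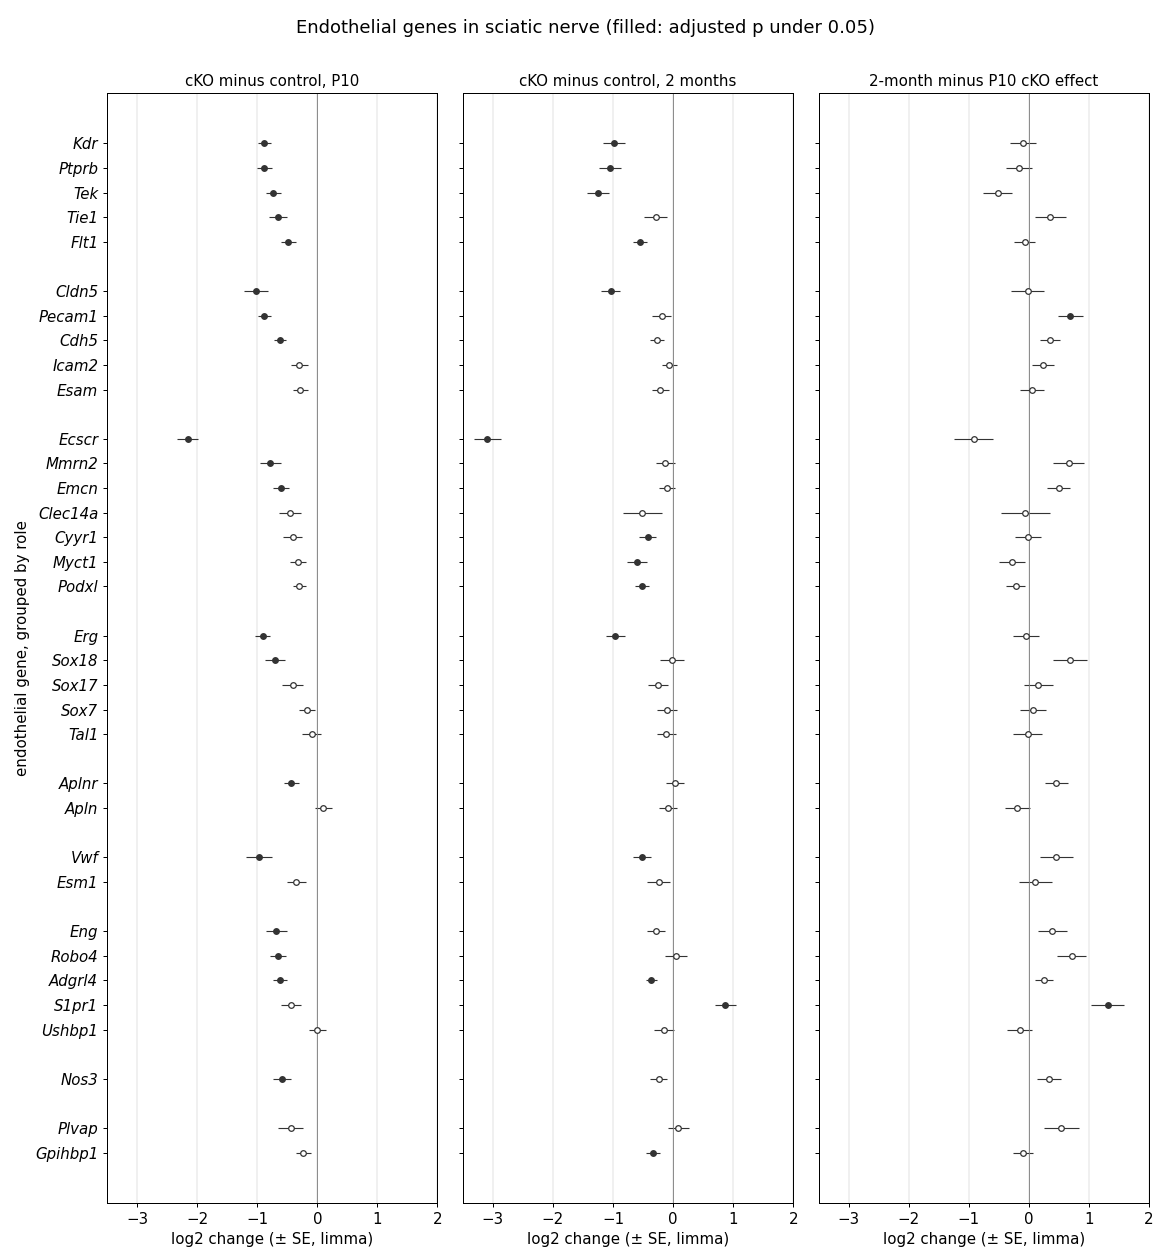
Log2 change (x axis, limma estimate ± SE) of 34 endothelial genes in rows grouped by role, for *Becn1* cKO minus control nerves at P10 (left) and at 2 months (middle), and for the difference between the 2-month and the P10 effect (right). Filled circles have an adjusted p under 0.05: 19 genes at P10, 14 at 2 months and 2 for the difference.

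The same 9 genes fell at both ages, namely *Kdr*, *Flt1*, *Tek*, *Ptprb*, *Cldn5*, *Ecscr*, *Erg*, *Vwf* and *Adgrl4*, while 5.24% of all genes tested were called lower at both ages. A further 10 fell at P10 and were not called at 2 months, 4 fell at 2 months and were not called at P10, and 10 were called at neither age. Among the 15 genes that passed the test at only 1 age, *Pecam1* and *S1pr1* had a called difference between the ages, so for the other 13 a difference of the cKO effect between P10 and 2 months was not shown.

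The genes of the VEGF and angiopoietin receptors and their partners (*Kdr*, *Flt1*, *Tek*, *Tie1* and *Ptprb*) fell in 5 of 5 cases at P10 and in 4 of 5 at 2 months. Over all genes, 7.44% were called lower at P10 and 15.5% at 2 months. Start-site windows are shown for the 3 ligand receptors that fell at both ages, whose values open the results by role. They are RefSeq sequences on GRCm38.p6, each 300 bases from 250 before to 50 after the transcription start, written in the direction of the gene. *Kdr* lies on the minus strand at chr5:75978406-75978705, *Flt1* on the minus strand at chr5:147725962-147726261 and *Tek* on the plus strand at chr4:94739039-94739338. Capitals mark 6-letter matches, on either strand, to the ETS motifs AGGAAG and CGGAAG, the SOX motifs ACAAAG and AACAAT, the GATA motif AGATAA and the GC box GGGCGG.
Kdr: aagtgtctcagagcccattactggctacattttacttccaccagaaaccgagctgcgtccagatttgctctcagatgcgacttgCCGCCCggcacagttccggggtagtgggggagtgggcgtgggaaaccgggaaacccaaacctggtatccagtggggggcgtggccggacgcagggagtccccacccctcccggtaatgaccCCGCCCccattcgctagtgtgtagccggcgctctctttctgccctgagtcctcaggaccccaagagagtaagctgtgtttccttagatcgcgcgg
Flt1: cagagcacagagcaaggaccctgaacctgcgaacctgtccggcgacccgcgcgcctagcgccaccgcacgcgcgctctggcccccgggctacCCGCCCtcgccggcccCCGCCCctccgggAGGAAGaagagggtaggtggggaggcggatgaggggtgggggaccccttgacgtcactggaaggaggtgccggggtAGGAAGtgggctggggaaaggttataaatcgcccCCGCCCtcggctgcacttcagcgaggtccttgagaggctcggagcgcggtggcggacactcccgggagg
Tek: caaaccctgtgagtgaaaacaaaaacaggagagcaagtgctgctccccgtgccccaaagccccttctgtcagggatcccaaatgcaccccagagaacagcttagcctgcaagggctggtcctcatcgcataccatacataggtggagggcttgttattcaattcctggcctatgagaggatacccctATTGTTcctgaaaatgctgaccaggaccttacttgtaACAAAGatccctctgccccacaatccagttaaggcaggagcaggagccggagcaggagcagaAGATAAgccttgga
The *Kdr* window held 2 GC boxes and no match to the other motifs. The *Flt1* window held 2 copies of AGGAAG and 3 GC boxes. The *Tek* window held 1 ACAAAG, 1 AACAAT and 1 AGATAA. Windows were given for 17 of the 34 measured genes, 20 windows in all, as *Erg* and *Tal1* had more than 1 each. AGGAAG was found in 55% of these and in 35.4% of all 32851 windows of the same length, CGGAAG in 5% against 16.9%, ACAAAG in 20% against 18.7%, AACAAT in 20% against 10.7%, AGATAA in 20% against 11.2% and GGGCGG in 30% against 35.7%. At least 1 of the 2 ETS motifs was found in 55% of the 20 windows, against 46.5% of all windows. These are counts of letters and were not tested.

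*Kdr*, which encodes the main signalling receptor for VEGF-A, was 8.97, 8.72, 8.71 and 8.68 in cKO nerves at P10, against 9.60, 9.85, 9.45 and 9.71 in control nerves. At 2 months it was 7.11, 6.86, 6.71 and 6.89 in cKO nerves, against 7.54, 7.60, 7.87 and 8.49 in control nerves. Every cKO array lay below every control array of its age. The log2 change was -0.88 (SE 0.11, limma adjusted p = 9.46e-05) at P10 and -0.98 (SE 0.18, adjusted p = 0.000449) at 2 months, which left 54.3% and 50.7% of the control signal. *Tek*, the receptor of the angiopoietins, was 7.70, 7.62, 7.51 and 7.66 in cKO nerves and 8.46, 8.35, 8.09 and 8.50 in control nerves at P10. It was 6.32, 6.85, 6.60 and 6.64 in cKO nerves and 7.33, 7.66, 7.99 and 8.43 in control nerves at 2 months, again without overlap, and the change was -0.73 (SE 0.12, adjusted p = 0.000629) at P10 and -1.25 (SE 0.19, adjusted p = 0.00011) at 2 months. *Ptprb*, a receptor phosphatase that acts on the angiopoietin receptor, was 7.67, 7.72, 7.62 and 7.74 in cKO nerves and 8.52, 8.88, 8.41 and 8.46 in control nerves at P10, and 6.22, 6.13, 6.32 and 6.29 in cKO nerves and 6.76, 7.11, 7.49 and 7.78 in control nerves at 2 months. Its changes of -0.88 (adjusted p = 0.000138) and -1.05 (adjusted p = 0.000266) were close to those of *Kdr*.

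*Flt1*, a VEGF receptor that also occurs as a soluble trap for the ligand, moved less. It was 8.12, 7.99, 7.86 and 7.64 in cKO nerves and 8.36, 8.36, 8.20 and 8.63 in control nerves at P10, and 6.72, 6.70, 7.0 and 7.08 in cKO nerves and 7.47, 7.48, 7.21 and 7.56 in control nerves at 2 months. The groups did not overlap at either age, and the changes were -0.48 (SE 0.13, limma adjusted p = 0.0236) and -0.55 (SE 0.12, adjusted p = 0.00255). The P10 call was lost without cKO replicate 3, cKO replicate 4 or control replicate 4, with adjusted p between 0.0578 and 0.0661. *Tie1*, an orphan receptor that pairs with the product of *Tek*, was lower at P10 with a change of -0.65 (SE 0.15, adjusted p = 0.01), where its arrays did not overlap. Its change at 2 months was -0.29 (SE 0.19, adjusted p = 0.273), with overlapping arrays.

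**Figure D2:**
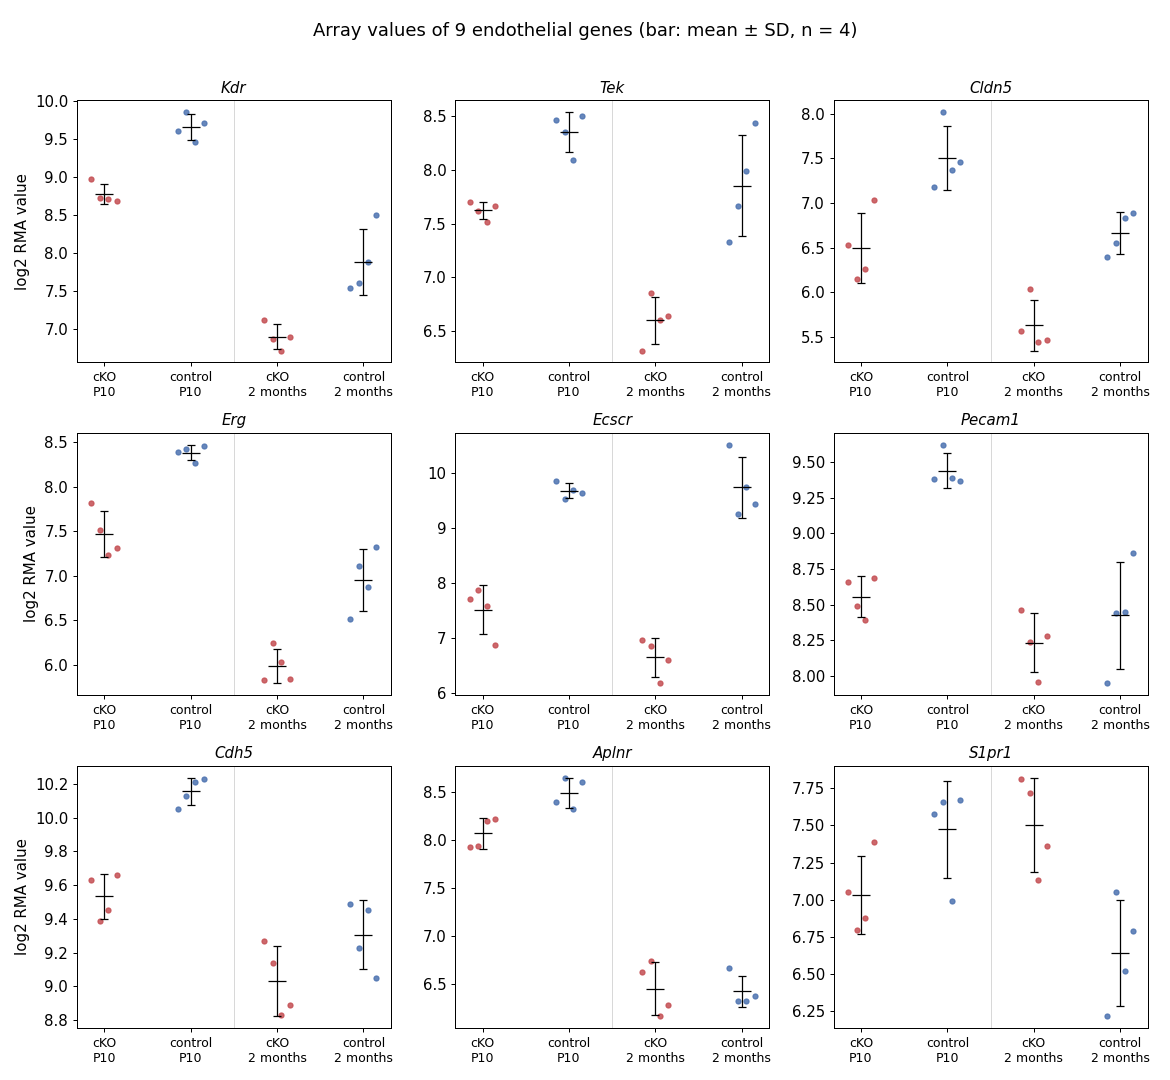
Log2 RMA value (y axis) of 9 endothelial genes in each of the 16 arrays, by group (x axis), with cKO nerves left of control nerves at each age. Points are arrays and bars are the mean ± SD of 4 arrays. The cKO points of *Kdr*, *Tek*, *Cldn5*, *Erg* and *Ecscr* lie below the control points at both ages, those of *Pecam1*, *Cdh5* and *Aplnr* at P10, and those of *S1pr1* above the control points at 2 months.

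Among the junction and adhesion genes, 3 of 5 fell at P10, where 7.44% of all genes were lower. *Cldn5* alone was called at 2 months, which is 20% of the group, near the 15.5% of all genes lower then. *Cldn5* encodes claudin 5, the main claudin of endothelial tight junctions. It was 6.53, 6.15, 6.26 and 7.03 in cKO nerves and 7.18, 8.02, 7.37 and 7.46 in control nerves at P10, and 5.57, 6.04, 5.44 and 5.46 in cKO nerves and 6.39, 6.55, 6.83 and 6.89 in control nerves at 2 months. The changes of -1.02 (SE 0.20, limma adjusted p = 0.00343) and -1.04 (SE 0.16, adjusted p = 0.000122) left 49.5% and 48.7% of the control signal, and the arrays did not overlap at either age. *Pecam1*, the adhesion molecule CD31 of endothelium, platelets and leukocytes, was 8.66, 8.49, 8.39 and 8.69 in cKO nerves and 9.38, 9.62, 9.39 and 9.37 in control nerves at P10, a change of -0.88 (SE 0.11, adjusted p = 6.35e-05). At 2 months it was 8.46, 8.24, 7.96 and 8.28 in cKO nerves and 7.95, 8.44, 8.45 and 8.86 in control nerves. The groups then overlapped, with the lowest control array below all 4 cKO arrays, and the change was -0.19 (SE 0.16, adjusted p = 0.412).

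*Cdh5*, the cadherin of endothelial adherens junctions, was 9.63, 9.39, 9.45 and 9.66 in cKO nerves at P10, all below the 10.05, 10.13, 10.21 and 10.23 of control nerves. Its change at P10 was -0.62 (SE 0.10, limma adjusted p = 0.000767). At 2 months its arrays overlapped, at 9.27, 9.14, 8.83 and 8.89 in cKO nerves and 9.49, 9.23, 9.45 and 9.05 in control nerves, with a change of -0.27 (adjusted p = 0.104). It became called at 2 months without cKO replicate 1 (adjusted p = 0.0484) or control replicate 4 (adjusted p = 0.0309). *Esam*, a tight junction adhesion molecule, was not called at either age, at -0.28 and -0.21, but was called lower at 2 months without control replicate 1 (-0.35, adjusted p = 0.0305). *Icam2*, a ligand of leukocyte integrins, had changes of -0.30 at P10 and -0.06 at 2 months and was not called. The macrophage genes, whose cells also carry *Pecam1*, averaged 9.16 ± 0.13 in cKO nerves and 7.76 ± 0.14 in control nerves at 2 months, and 7.38 ± 0.17 in cKO nerves and 7.19 ± 0.17 in control nerves at P10. Their part in the *Pecam1* result was not tested.

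The surface glycoproteins and their partners fell in 3 of 7 genes at P10 and 4 of 7 at 2 months, beside 7.44% and 15.5% of all genes. *Ecscr*, an endothelial membrane protein of cell migration and apoptosis, had the largest change of the 34 genes at both ages. It was 7.71, 7.88, 7.59 and 6.87 in cKO nerves and 9.85, 9.52, 9.69 and 9.64 in control nerves at P10. At 2 months it was 6.97, 6.85, 6.18 and 6.60 in cKO nerves and 10.51, 9.26, 9.74 and 9.43 in control nerves. The gap between the highest cKO and the lowest control array exceeded the whole spread within either group at both ages. The change was -2.16 (SE 0.18, limma adjusted p = 1.47e-06) at P10 and -3.09 (SE 0.23, adjusted p = 8.3e-08) at 2 months, so that 22.3% and 11.8% of the control signal was left. *Emcn*, a sialomucin of capillaries and veins, had a log2 change of -0.60 at P10 (adjusted p = 0.0065), at 7.66, 7.22, 7.71 and 7.32 in cKO nerves against 8.08, 8.03, 8.25 and 7.96 in control nerves. At 2 months the arrays of *Emcn* overlapped (7.80, 7.78, 7.35 and 7.43 in cKO nerves, 7.90, 7.53, 7.57 and 7.77 in control nerves), with a change of -0.10 (adjusted p = 0.591).

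*Mmrn2*, an endothelial matrix protein that binds the product of *Clec14a*, fell by 0.78 at P10 (limma adjusted p = 0.00977) and was -0.13 at 2 months (adjusted p = 0.599). *Clec14a* itself, a C-type lectin of endothelium, was not called at either age, with changes of -0.45 (SE 0.18) and -0.51 (SE 0.32), and its control arrays at 2 months ran from 4.71 to 6.14. *Podxl*, the sialomucin podocalyxin, was called at 2 months with a change of -0.52 (adjusted p = 0.00346). Its arrays were then 7.01, 6.68, 6.56 and 6.54 in cKO nerves and 7.16, 7.24, 7.21 and 7.25 in control nerves, without overlap. At P10 its change was -0.30 (adjusted p = 0.108), and it was called there without control replicate 1 (adjusted p = 0.0462). *Myct1*, an endothelial membrane protein, fell by 0.60 at 2 months (adjusted p = 0.0127) beside a change of -0.32 at P10 (adjusted p = 0.123). *Cyyr1*, a membrane protein with cysteine- and tyrosine-rich segments, had nearly equal changes of -0.41 at P10 (adjusted p = 0.109) and -0.42 at 2 months (adjusted p = 0.0285). The *Cyyr1* call at 2 months was lost without cKO replicate 2, 3 or 4 or control replicate 3 or 4 (adjusted p up to 0.0933), and at P10 it was called without control replicate 3 (adjusted p = 0.0255).

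Of the 5 transcription factor genes, 2 fell at P10, where 7.44% of all genes were lower, and *Erg* fell at both ages. The single call at 2 months is 20% of the group, near the 15.5% of all genes lower then. *Erg* encodes the ETS factor that maintains endothelial identity and junction genes. It was 7.82, 7.51, 7.23 and 7.31 in cKO nerves and 8.39, 8.42, 8.26 and 8.46 in control nerves at P10, and 5.83, 6.24, 6.03 and 5.84 in cKO nerves and 6.51, 7.11, 6.87 and 7.32 in control nerves at 2 months. The changes of -0.91 (SE 0.13, limma adjusted p = 0.000276) and -0.96 (SE 0.16, adjusted p = 0.000307) were similar, and no arrays overlapped at either age. Of the SOX factors that act in vessel development, *Sox18* fell at P10 by 0.70 (adjusted p = 0.0136), at 5.99, 5.70, 5.68 and 6.34 in cKO nerves and 6.63, 6.71, 6.30 and 6.85 in control nerves, where 1 cKO array reached above the lowest control array. Its call was lost without cKO replicate 2 (adjusted p = 0.052) or cKO replicate 3 (adjusted p = 0.0501). At 2 months *Sox18* had a change of -0.01 (adjusted p = 0.982). *Sox17* (-0.41 at P10, -0.25 at 2 months), *Sox7* (-0.17 and -0.10) and *Tal1*, a factor of blood and endothelial precursors (-0.09 and -0.11), were called at neither age.

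Among secreted products, *Vwf*, the von Willebrand factor that endothelial cells store for haemostasis, fell at both ages. It was 6.85, 6.56, 6.98 and 6.99 in cKO nerves and 7.49, 8.55, 7.34 and 7.87 in control nerves at P10, without overlap, and 6.83, 6.89, 6.36 and 6.53 in cKO nerves and 6.89, 7.06, 7.36 and 7.33 in control nerves at 2 months, where the closest arrays of both groups were equal at 2 decimals. The changes were -0.97 (SE 0.22, limma adjusted p = 0.00685) and -0.51 (SE 0.15, adjusted p = 0.0136), and the 2-month call was lost without cKO replicate 3 (-0.41, adjusted p = 0.0529). *Esm1*, a proteoglycan of sprouting endothelial cells, was not called, with changes of -0.35 and -0.24. Of the apelin pair, the receptor gene *Aplnr* was 7.93, 7.94, 8.20 and 8.22 in cKO nerves and 8.40, 8.65, 8.33 and 8.61 in control nerves at P10. That was a change of -0.43 (SE 0.12, adjusted p = 0.0291), which was lost without cKO replicate 1 or 2 or control replicate 2 or 4 (adjusted p from 0.0634 to 0.0984). At 2 months *Aplnr* was 6.63, 6.74, 6.17 and 6.28 in cKO nerves and 6.67, 6.33, 6.33 and 6.38 in control nerves, with a change of 0.03 (adjusted p = 0.91). The ligand gene *Apln* had changes of 0.10 and -0.08 and was called at neither age. Its mean over the 16 arrays was 4.53, below the lowest array median of 6.50. Other genes called at neither age were also below it, among them *Sox17* (4.89), *Icam2* (5.48), *Esm1* (5.51) and *Clec14a* (5.65). Without a background level, how well such low values show a change is not known.

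The signalling receptors divided. *Adgrl4*, an adhesion G protein-coupled receptor of endothelium, was 8.29, 7.89, 7.90 and 7.91 in cKO nerves and 8.49, 8.51, 8.80 and 8.66 in control nerves at P10, and 7.50, 7.57, 7.53 and 7.52 in cKO nerves and 7.93, 7.88, 7.78 and 8.01 in control nerves at 2 months. It fell at both ages without overlap, with changes of -0.62 (limma adjusted p = 0.00319) and -0.36 (adjusted p = 0.00692). *Eng*, the endothelial co-receptor for TGF-beta and BMP ligands, fell at P10 by 0.68 (adjusted p = 0.0128), a call lost without cKO replicate 2 (-0.60, adjusted p = 0.0507), and its change at 2 months was -0.29 (adjusted p = 0.152). *Robo4*, an endothelial receptor of the roundabout family, was 6.54, 6.25, 6.14 and 6.04 in cKO nerves and 6.86, 6.87, 6.94 and 6.91 in control nerves at P10. It fell there by 0.65 (adjusted p = 0.00362), and its change at 2 months was 0.05 (adjusted p = 0.869). *Ushbp1*, which is named for a binding partner of the Usher syndrome protein harmonin, had changes of 0.00 and -0.15 and was called at neither age.

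*S1pr1*, the sphingosine-1-phosphate receptor of endothelial cells and lymphocytes, was the exception in direction. At 2 months it was 7.81, 7.72, 7.13 and 7.36 in cKO nerves, all above the 6.22, 7.05, 6.52 and 6.79 of control nerves. The change was 0.87 (SE 0.18, limma adjusted p = 0.00159), or 1.82-fold. At P10 it was 7.05, 6.80, 6.88 and 7.39 in cKO nerves and 7.58, 7.66, 6.99 and 7.67 in control nerves, a change of -0.44 (SE 0.17, adjusted p = 0.12), and it was called lower there without cKO replicate 4 (adjusted p = 0.0467) or control replicate 3 (adjusted p = 0.0203). The rise at 2 months stood beside the macrophage gene mean of 9.16 ± 0.13 in cKO nerves and 7.76 ± 0.14 in control nerves, and the part of other cells in it was not tested.

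*Nos3*, the endothelial nitric oxide synthase, was 5.59, 5.78, 6.11 and 5.73 in cKO nerves and 6.29, 6.46, 6.22 and 6.54 in control nerves at P10, without overlap. It fell by 0.58 (limma adjusted p = 0.0157), a call lost without cKO replicate 1 (-0.51, adjusted p = 0.0596), and its change at 2 months was -0.24 (adjusted p = 0.215). Of the genes of capillary specialisation, *Gpihbp1*, which carries lipoprotein lipase to the capillary lumen, was 6.46, 6.74, 6.69 and 6.50 in cKO nerves and 6.88, 6.85, 6.84 and 7.14 in control nerves at 2 months. This change of -0.33 (adjusted p = 0.0437) was close to the threshold and was lost without cKO replicate 1, 3 or 4 or control replicate 2, 3 or 4 (adjusted p from 0.0541 to 0.125). *Plvap*, the diaphragm protein of fenestrated endothelium, had changes of -0.44 at P10 (adjusted p = 0.207) and 0.09 at 2 months (adjusted p = 0.732).

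The difference between the cKO effect at 2 months and that at P10 was tested in a fit of all 16 arrays. It was called for 2 of the 34 genes, both higher, or 5.88%, while 12.3% of all genes were called in either direction 4.59% lower and 7.69% higher, so the count among endothelial genes was below the share over all genes. *S1pr1* had a difference of 1.31 (SE 0.27, limma adjusted p = 0.00283), and *Pecam1* one of 0.69 (SE 0.21, adjusted p = 0.0315). The *Pecam1* call was lost when any of 8 of the 16 arrays was left out in turn, cKO replicates 2 or 3 or control replicate 2 at P10 and cKO replicates 1, 2 or 4 or control replicates 1 or 3 at 2 months, with differences of 0.53 to 0.70 and adjusted p up to 0.0739. The median difference was 0.09, against -0.008 over all genes. *Ecscr* (-0.92, adjusted p = 0.0679) and *Robo4* (0.71, adjusted p = 0.0572) had the next smallest p, and of the genes that fell at both ages none had a called difference. *Robo4* became called without cKO replicate 1 at P10, cKO replicate 2 at 2 months or control replicate 1 at 2 months, *Ecscr* without cKO replicate 4 at P10 or control replicate 2 at 2 months, *Mmrn2* (0.66, adjusted p = 0.106) without cKO replicate 4 at P10 or control replicate 4 at 2 months, and *Tek* (-0.52, adjusted p = 0.175) without control replicate 1 at 2 months. The adjusted p of these fits lay between 0.0149 and 0.0417.

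With age, endothelial genes fell in nerves of both genotypes. In cKO nerves 22 of the 34 genes were lower at 2 months than at P10 and none was higher, where 29.9% of all genes were called, 13.8% lower and 16.1% higher. In control nerves 30 of the 34 were lower and none higher, where 29% of all genes were called, 15.2% lower and 13.8% higher. The median change was -0.55 in cKO nerves and -0.71 in control nerves, against -0.046 and -0.015 over all genes in the same comparisons. Both comparisons share arrays with those between the genotypes. *Aplnr* had the largest fall in control nerves, at -2.07 (SE 0.13, limma adjusted p = 7.58e-10), beside -1.62 (adjusted p = 7.96e-09) in cKO nerves, and *Kdr* the largest in cKO nerves, at -1.88 (SE 0.16, adjusted p = 8.55e-09), beside -1.78 (adjusted p = 3.42e-08) in control nerves. *Erg* had changes of -1.48 in cKO nerves and -1.43 in control nerves. Genes of other cells fell with age too. Skeletal muscle genes were lower at 2 months in 4 of 10 in cKO nerves and in 9 of 10 in control nerves (medians -1.95 and -2.75), mitosis genes in 9 of 9 in both (medians -0.97 and -1.42) and pericyte genes in 6 of 11 and 7 of 11, while macrophage genes were higher in 10 of 10 in cKO nerves and 8 of 10 in control nerves and perineurial genes in 6 of 7 and 7 of 7. With the skeletal muscle mean as a covariate, an alternative chosen after seeing the data, 21 of the 34 endothelial genes were lower and 1 higher in cKO nerves (median -0.57) and 24 lower and none higher in control nerves (median -0.76). Without control replicate 4 at P10, 26 were lower in control nerves. The part of mitosis and the other cell types in the change with age was not tested.

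In 21 genes the fall with age was called in both genotypes, as it was in 7.79% of all genes. In 9 it was called in control nerves but not in cKO nerves, namely *Pecam1*, *Esam*, *Emcn*, *Mmrn2*, *Sox17*, *Vwf*, *S1pr1*, *Nos3* and *Plvap*. Of these 9 genes, the difference between the genotypes was called for *Pecam1* and *S1pr1*, since it is the same contrast as the difference between the ages, and for the other 7 a difference between the genotypes was not shown. *Pecam1* and *Sox17* were called lower in cKO nerves too with array weights (limma adjusted p = 0.0364 and 0.0453) and with only the 8 cKO arrays (0.0438 and 0.0294). *S1pr1* was 0.48 (limma adjusted p = 0.066) in cKO nerves and -0.83 (adjusted p = 0.00207) in control nerves. *Ecscr* was called in cKO nerves but not in control nerves, at -0.86 (adjusted p = 0.00616) in cKO nerves and 0.06 (adjusted p = 0.886) in control nerves, and the difference between the genotypes missed the threshold (-0.92, adjusted p = 0.0679). *Tal1*, *Esm1* and *Ushbp1* were called in neither genotype.

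**Figure D3:**
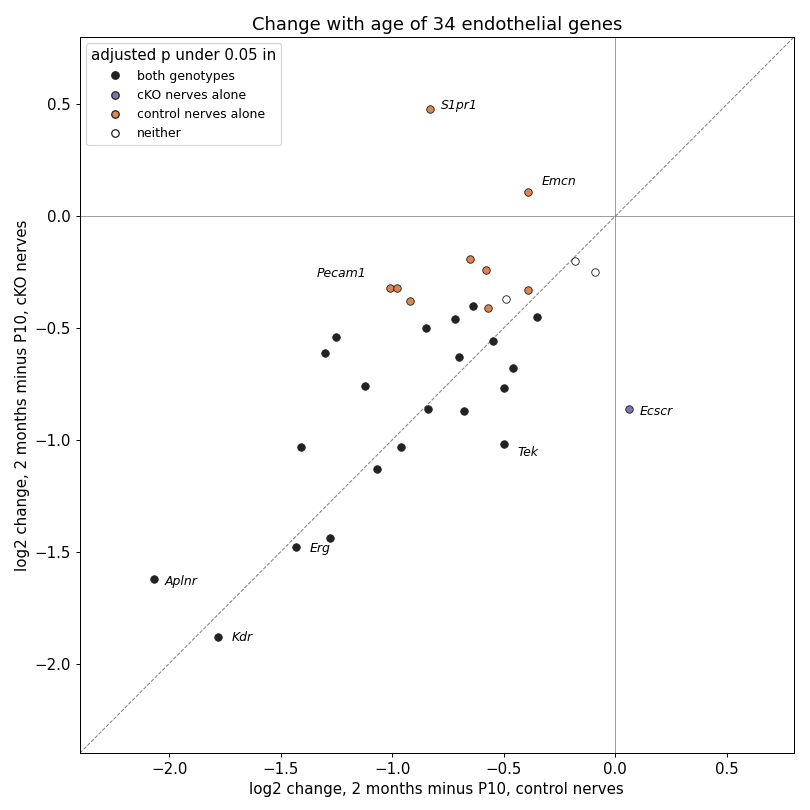
Log2 change (2 months minus P10) of 34 endothelial genes in cKO nerves (y axis) and in control nerves (x axis), with the dashed line marking equal change. Points are genes, filled by where the change had an adjusted p under 0.05. Most genes lie below 0 on both axes, *Kdr* and *Aplnr* farthest, while *Ecscr* (-0.86 in cKO nerves, 0.06 in control nerves) and *S1pr1* (0.48 in cKO nerves, -0.83 in control nerves) stand apart.

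Several of the smaller changes with age rested on single arrays. In control nerves the call for *Gpihbp1* (-0.35) was lost without replicate 1, 2 or 3 at 2 months or replicate 2, 3 or 4 at P10, that for *Tek* (-0.50) without replicate 1 or 2 at 2 months or 1, 2 or 4 at P10, as it was with quantile normalization (adjusted p = 0.0552), and that for *Emcn* (-0.39) without replicate 2 or 3 at 2 months or 1, 2 or 3 at P10. That for *Esam* (-0.39) was lost without replicate 1 or 3 at 2 months or 2 or 4 at P10, and those for *Myct1* (-0.50), *Sox17* (-0.57) and *Vwf* (-0.65) without replicate 1 at 2 months, or at P10 without replicate 4 for *Myct1* and without replicate 2 for *Sox17* and *Vwf*. The adjusted p of these fits lay between 0.0508 and 0.184. *Esm1* (-0.49, limma adjusted p = 0.0566) became called without control replicate 3 of either age (adjusted p = 0.0078 without that at 2 months and 0.0359 without that at P10). In cKO nerves the calls for *Icam2* (-0.40), *Sox18* (-0.61) and *Robo4* (-0.54) were lost in this way. The arrays were replicates 1 and 4 at 2 months and 1, 2 and 3 at P10 for *Icam2*, replicates 2 and 4 at 2 months and 1 and 4 at P10 for *Sox18*, and replicates 2 and 3 at 2 months and 1 at P10 for *Robo4*, with adjusted p between 0.0537 and 0.0997. In the same nerves *S1pr1* became called higher without replicate 3 at 2 months (0.60, adjusted p = 0.0306) or replicate 4 at P10 (0.60, adjusted p = 0.0291), *Esam* lower without replicate 2 at P10 (adjusted p = 0.0454) and *Sox17* lower without replicate 4 at P10 (adjusted p = 0.0491).

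The ligands of these receptors moved in different directions. *Angpt1*, the activating ligand of the angiopoietin receptor, was 5.44, 5.83, 5.20 and 5.70 in cKO nerves and 7.07, 6.91, 6.71 and 6.55 in control nerves at P10, and 5.97, 6.03, 5.98 and 6.14 in cKO nerves and 7.10, 7.24, 7.55 and 7.72 in control nerves at 2 months. It fell at both ages, with changes of -1.27 (limma adjusted p = 0.000107) and -1.38 (adjusted p = 1.87e-06). *Angpt2*, the context-dependent antagonist of *Angpt1*, was 7.72, 7.73, 7.99 and 8.15 in cKO nerves and 7.56, 7.35, 7.29 and 6.50 in control nerves at P10, and 7.64, 7.34, 7.60 and 7.64 in cKO nerves and 7.16, 6.67, 6.87 and 6.94 in control nerves at 2 months. It rose by 0.72 (adjusted p = 0.0225) and by 0.64 (adjusted p = 0.000773), and the P10 call was lost without cKO replicate 3 or 4 (adjusted p up to 0.0653). *Vegfa*, the ligand of the *Kdr* and *Flt1* receptors, fell at 2 months by 0.49 (adjusted p = 0.00613), at 7.68, 7.91, 7.92 and 7.99 in cKO nerves and 8.31, 8.14, 8.29 and 8.73 in control nerves, and its change at P10 was -0.33 (adjusted p = 0.273). *Angpt2* and *Vegfa* were chosen for mention after their values were seen.

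Over 31 measured genes of the VEGF, angiopoietin and Notch pathways, 7 fell and 5 rose at P10 and 11 fell and 6 rose at 2 months, with medians of -0.23 and -0.17. Of all genes, 7.44% were lower and 5.48% higher at P10, and 15.5% lower and 18.5% higher at 2 months. *Dll4*, the Notch ligand of arterial and sprouting endothelium, fell with changes of -1.0 at P10 (limma adjusted p = 3.49e-05) and -0.51 at 2 months (adjusted p = 0.0147), the later call being lost without cKO replicate 2 (adjusted p = 0.0545). *Cxcl12*, a chemokine, had changes of -0.64 (adjusted p = 0.000399) and -1.18 (adjusted p = 7.17e-06). Its receptor gene *Cxcr4*, which many cell types express, rose by 2.83 (adjusted p = 1.95e-09) and by 3.29 (adjusted p = 7.78e-09). *Hey2*, a target of Notch, rose by 3.43 (adjusted p = 3.65e-08) and by 1.68 (adjusted p = 3.16e-06). The arrays do not say which cells of the nerve carried these transcripts.

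**Figure D4:**
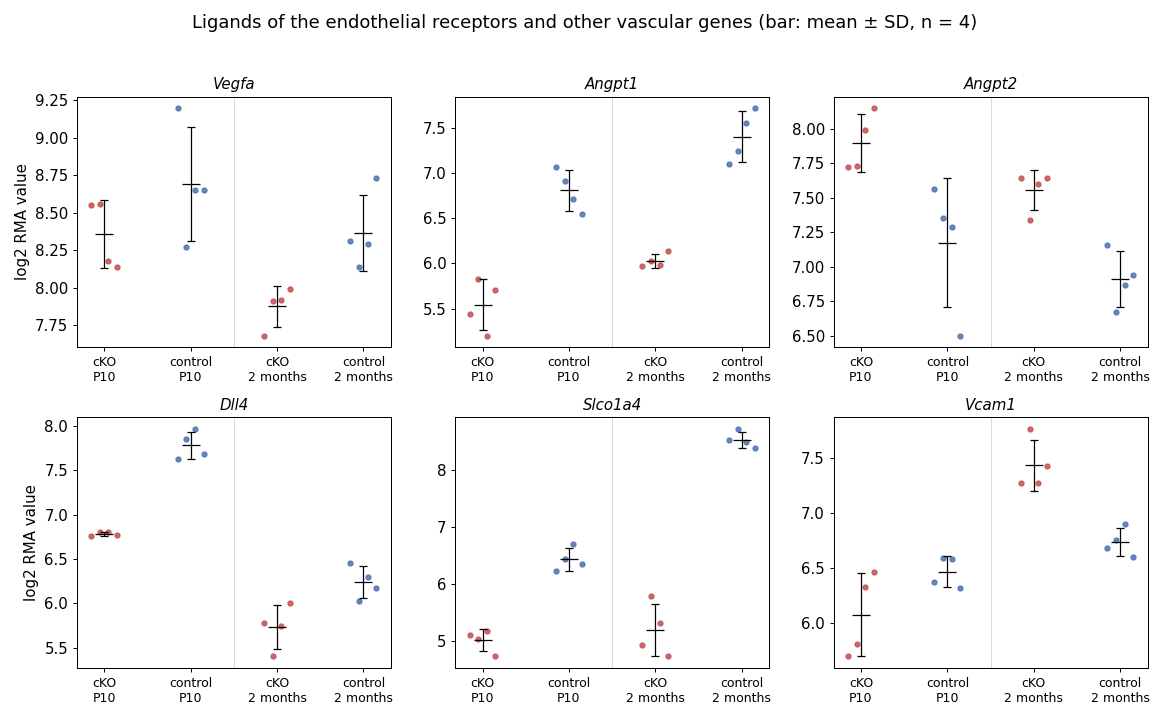
Log2 RMA value (y axis) of 6 vascular genes that are not among the 36, in each of the 16 arrays by group (x axis), with cKO nerves left of control nerves at each age. Points are arrays and bars the mean ± SD of 4 arrays. *Angpt1*, *Dll4* and *Slco1a4* were lower in cKO nerves at both ages, *Angpt2* was higher at both, *Vegfa* was lower and *Vcam1* higher at 2 months.

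A list of 44 other measured endothelial genes was set beside the 34. Of these, 16 fell and 1 rose at P10, with a median change of -0.35, and 14 fell and 9 rose at 2 months, with a median of -0.21. Over all genes 7.44% were lower and 5.48% higher at P10, and 15.5% lower and 18.5% higher at 2 months. The count of higher genes at 2 months was thus near the share over all genes. The lowest change in this list was that of *Palmd*, a palmdelphin gene, with -1.21 at P10 (limma adjusted p = 1.54e-06) and -2.59 at 2 months (adjusted p = 3.59e-09). *Cavin2*, a caveola coat gene, fell likewise with -1.08 (adjusted p = 3.07e-05) and -0.96 (adjusted p = 5.64e-06), *Hspa12b*, a heat shock protein gene of endothelium, with -0.75 (adjusted p = 0.000262) and -0.62 (adjusted p = 0.00181), and *Mecom*, a transcription factor gene, with -0.82 (adjusted p = 0.000631) and -0.51 (adjusted p = 0.01). *Ets1*, an ETS factor that lymphocytes also express, rose by 0.57 (adjusted p = 0.00316) and by 1.36 (adjusted p = 6.63e-08). *Rasgrp3*, an activator of Ras proteins, rose by 1.13 at 2 months (adjusted p = 9.79e-06) and had a change of -0.47 at P10 (adjusted p = 0.0365). The P10 call of *Rasgrp3* was lost without any single cKO array or without control replicate 3 or 4 (adjusted p up to 0.0868), and the difference between the ages was 1.60 (adjusted p = 2.33e-05).

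By vessel type, the counts stand beside 7.44% of all genes lower and 5.48% higher at P10, and 15.5% lower and 18.5% higher at 2 months. Capillary genes fell in 5 of 12 at P10 and in 4 of 12 at 2 months (medians -0.45 and -0.33), with none and 1 higher. Arterial genes fell in 5 of 12 and 3 of 12, with 2 and 4 higher (medians -0.36 and -0.18). Venous genes fell in 2 of 9 and 1 of 9, with 1 and 2 higher (medians -0.17 and 0.03). *Dll4*, given above, is on the arterial list and fell at both ages. So did *Stmn2*, with -0.69 (limma adjusted p = 0.0033) and -1.27 (adjusted p = 2.09e-05), and *Bmx*, with -0.55 (adjusted p = 0.0469) and -0.82 (adjusted p = 0.000262). The arterial gene *Sema3g*, a semaphorin, rose by 1.09 at P10 (limma adjusted p = 1.29e-05) and by 0.43 at 2 months (adjusted p = 0.0297), the later call being lost without cKO replicate 2 or 4 or control replicate 3 or 4 (adjusted p up to 0.101). *Mgp*, a matrix protein of arteries and cartilage, had changes of -0.64 at P10 (adjusted p = 0.0026) and 0.98 at 2 months (adjusted p = 0.000197). Of 14 genes of tip cells, the leading cells of vascular sprouts, 5 fell and 2 rose at P10 and 6 fell and 4 rose at 2 months. Lymphatic genes fell in 2 of 8 and 3 of 8 with none higher. Those called at P10 were *Mmrn1* (-1.49, adjusted p = 0.00385) and *Lyve1* (-0.51, adjusted p = 0.0447). *Reln*, the reelin gene, was called at 2 months (-1.43, adjusted p = 2.2e-07) but not at P10 (-0.29, adjusted p = 0.0574). Genes of barrier endothelium, some of which perineurial cells also express, fell in 8 of 20 at P10 and in 12 of 20 at 2 months with none higher, and their medians were -0.43 and -0.53. Among them *Slco1a4*, an organic anion transporter, was 5.12, 5.05, 5.19 and 4.74 in cKO nerves and 6.24, 6.44, 6.71 and 6.36 in control nerves at P10, and 4.94, 5.79, 5.33 and 4.74 in cKO nerves and 8.52, 8.72, 8.49 and 8.39 in control nerves at 2 months. Its changes were -1.41 (limma adjusted p = 1.66e-05) and -3.33 (adjusted p = 6.24e-09), and with age it rose by 2.10 in control nerves (adjusted p = 2.12e-08), beside 0.18 in cKO nerves (adjusted p = 0.515). *Abcb1a*, a drug efflux pump, had changes of -0.76 (adjusted p = 0.00335) and -0.97 (adjusted p = 2.56e-06), *Spock2*, a matrix proteoglycan, of -1.05 (adjusted p = 5.2e-05) and -1.36 (adjusted p = 7.45e-06), and *Mfsd2a*, the lysolipid transporter of barrier capillaries, of -1.19 (adjusted p = 1.78e-05) and -0.55 (adjusted p = 0.0184), the last call being lost without control replicate 3 (adjusted p = 0.0515).

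Genes of activation and haemostasis fell in 3 of 11 at P10 and 5 of 11 at 2 months, with none and 1 higher. The shares over all genes were 7.44% lower and 5.48% higher at P10, and 15.5% lower and 18.5% higher at 2 months. *Ackr1*, a chemokine-binding receptor of venules, had changes of -0.69 (limma adjusted p = 0.00217) and -1.38 (adjusted p = 6.08e-06), and *Procr*, the protein C receptor, of -0.87 (adjusted p = 0.0192, lost without cKO replicate 1 or 2, up to 0.0704) and -1.10 (adjusted p = 4.03e-05). *Vcam1*, an adhesion molecule for leukocytes, was 7.27, 7.76, 7.27 and 7.42 in cKO nerves and 6.68, 6.75, 6.90 and 6.60 in control nerves at 2 months. It rose there by 0.70 (adjusted p = 0.000553), and its change at P10 was -0.39 (adjusted p = 0.191).

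The genes of cells around the vessels fell as well. Beside the counts below, 7.44% of all genes were lower and 5.48% higher at P10, and 15.5% lower and 18.5% higher at 2 months. Pericyte genes fell in 5 of 11 at each age with none higher (medians -0.51 and -0.32), and vascular smooth muscle genes in 7 of 10 and 6 of 10 with none higher (medians -1.38 and -0.88). The smooth muscle gene *Acta2* had changes of -1.47 (limma adjusted p = 0.000152) and -1.14 (adjusted p = 0.00032), *Tagln* of -1.40 (adjusted p = 1.3e-05) and -1.66 (adjusted p = 2.04e-07), and the pericyte gene *Abcc9* of -0.94 (adjusted p = 0.00335) and -1.12 (adjusted p = 0.000229). *Rgs5*, another pericyte gene, had changes of -0.54 (adjusted p = 0.0207) and -0.40 (adjusted p = 0.00708), the P10 call being lost without cKO replicate 3 or control replicate 2 or 3 (up to 0.0689). Adipocyte genes fell in 6 of 7 and 4 of 7, and their mean was 6.44 ± 0.13 in cKO nerves and 7.60 ± 0.26 in control nerves at P10, and 6.95 ± 0.51 in cKO nerves and 8.07 ± 0.89 in control nerves at 2 months. In control arrays at 2 months the adipocyte mean was 6.97, 7.93, 8.25 and 9.14, and the smooth muscle mean 6.74, 6.75, 7.08 and 7.43. Both rose from replicate 1 to 4 like the endothelial mean, while in the other groups the orders differed. The part of this in the endothelial result was not tested. *Adipoq*, the adiponectin gene, had changes of -1.76 (adjusted p = 6.96e-06) and -1.51 (adjusted p = 0.00522). Fibroblast genes fell in 4 of 10 and 8 of 10, with none and 1 higher, and perineurial genes in 2 of 7 and 5 of 7. The collagen gene *Col1a1* had changes of -0.19 (adjusted p = 0.405) and -0.99 (adjusted p = 3.67e-07), and the potassium channel gene *Kcnj13* of the perineurial list -0.45 (adjusted p = 0.0291) and -0.99 (adjusted p = 2.26e-05), the P10 call being lost without cKO replicate 1, 2 or 3 or control replicate 2 or 3 (adjusted p up to 0.101).

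Macrophage genes rose in 9 of 10 at 2 months and in none at P10, and mitosis genes rose in 9 of 9 at both ages, with *Cdk1*, the mitotic kinase gene, at 1.27 (limma adjusted p = 0.000347) and 2.83 (adjusted p = 4.49e-09). Schwann cell genes fell in 4 of 9 at both ages and rose in 2 and 3, with *Mbp*, a myelin gene, at -1.17 (limma adjusted p = 3.9e-06) and -2.33 (adjusted p = 4.44e-10). Genes of platelets, which also carry the products of *Vwf* and *Pecam1*, rose in 1 of 7 at P10, and 3 fell and 1 rose at 2 months. These counts by cell type stand beside 7.44% of all genes lower and 5.48% higher at P10, and 15.5% lower and 18.5% higher at 2 months. Of 3 measured red blood cell genes, *Alas2*, a gene of haem synthesis, fell at 2 months (-0.82, adjusted p = 0.00587). None of the 10 skeletal muscle genes was called at either age, though all 10 had a negative change at P10 (median -1.04), and with their mean as a covariate, also chosen after seeing the data, 19 of the 34 endothelial genes were lower and none higher at P10 (median -0.57) and 12 lower and 1 higher at 2 months (median -0.26). The share of each cell type in the nerve was not measured, and the part of these changes in the endothelial result was not tested.

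**Figure D5:**
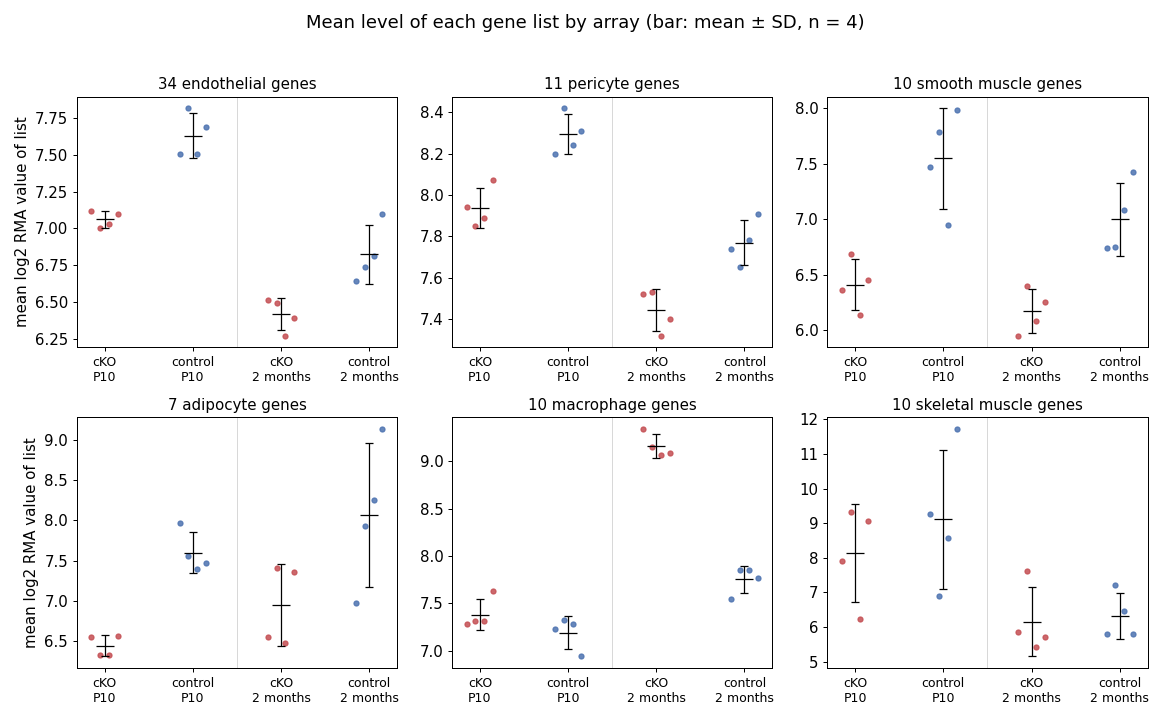
Mean log2 RMA value (y axis) of 6 gene lists in each of the 16 arrays by group (x axis), with cKO nerves left of control nerves at each age. Points are arrays and bars the mean ± SD of 4 arrays. The endothelial, pericyte and smooth muscle means lie lower in cKO nerves at both ages, the macrophage mean is higher in cKO nerves at 2 months (9.16 against 7.76), and the skeletal muscle mean is spread from 6.90 to 11.73 in control nerves at P10.

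The 34 genes varied together to different degrees. Over the 16 arrays, which share the group structure and the age difference, the correlation of a gene with the mean of the other measured members was 0.98 for *Kdr*, 0.97 for *Ptprb*, 0.96 for *Erg* and *Eng* and 0.95 for *Tie1*. It was 0.16 for *S1pr1*, 0.52 for *Ecscr*, 0.57 for *Emcn* and *Tal1* and 0.58 for *Ushbp1*, and lay between 0.74 and 0.98 for the others. After the group means were taken out, it was 0.89 for *Kdr*, 0.84 for *Pecam1* and 0.82 for *Eng*, against -0.34 for *Ecscr*, -0.16 for *Robo4*, -0.08 for *Cdh5* and -0.01 for *Flt1*. *Ecscr*, with the largest change between the genotypes, was thus among the genes that followed the others least within groups. These correlations are descriptions over 16 arrays of 4 groups.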

How the data were processed

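RNA of sciatic nerve was measured on 16 Clariom S mouse arrays, 4 per group. The authors deposited log2 values made with the robust multiarray average (RMA) in Transcriptome Analysis Console, for 22206 transcript clusters. Without the scans, which were not used, no background level was available here. Precision is limited by how many arrays there are. Of the clusters, 19572 carry a symbol in the platform annotation, whose genome build is not given in the sources used here, and 2634 do not. They give 19505 genes, with 55 on several clusters represented by the cluster of the highest mean.

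Changes were fitted in R 4.3.3 with limma 3.58.1 (lmFit, eBayes with an intensity trend), on the 8 arrays of an age for cKO against control nerves, and on all 16 arrays for the difference between ages and the changes with age. A call needed a p under 0.05 after Benjamini-Hochberg adjustment over all 19505 genes. The fit was tested on simulated data. The methods of the study test the 5000 most variable clusters with SAM, which was not run here.

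All 36 members are named, with *Becn1*. Of each of 20 other lists, up to 4 genes with the smallest p at each age could be named. Those given are a part of them, picked after their values were seen. The members and lists were chosen with earlier results of these data known. Of 272 list entries, 18 were not found under their symbol. Alternatives were other filters (dim genes, variable clusters), scalings (median centring, quantile), array weights, no trend, every cluster, other sets of arrays in the fit, the replicate number as a block, a muscle covariate and leaving out each array.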

Additional observations from a re-analysis of the deposited data

Results flagged for a closer look

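In groups of 4 arrays, a single array stood far from the other arrays of its group in 15 of 288 groups tested. About 5% are expected by chance, and the count was near that share, so the arrays below are listed as a description. Among the endothelial genes, *Kdr* was 8.97 in cKO replicate 1 at P10 (others 8.68 to 8.72), and *Adgrl4* was 8.29 in the same array (others 7.89 to 7.91). *Pecam1* was 9.62 in control replicate 2 at P10 (others 9.37 to 9.39), *S1pr1* 6.99 in control replicate 3 at P10 (others 7.58 to 7.67) and *Gpihbp1* 6.98 in control replicate 1 at P10 (others 7.34 to 7.40). At 2 months *Aplnr* was 6.67 in control replicate 1 (others 6.33 to 6.38), *Esm1* 5.97 in control replicate 3 (others 5.19 to 5.26) and *Gpihbp1* 7.14 in control replicate 4 (others 6.84 to 6.88).

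Among the other genes named, *Angpt2* was 7.34 (others 7.60 to 7.64) and *Cavin2* 8.40 (others 8.10 to 8.12) in cKO replicate 2 at 2 months, and *Ackr1* was 6.78 in control replicate 3 at P10 (others 6.98 to 7.02). *Rasgrp3* was 8.25 in control replicate 4 at P10 (others 7.62 to 7.72). The macrophage gene *Aif1* was 4.15 in cKO replicate 1 at P10 (others 4.81 to 4.88) and 7.43 in cKO replicate 2 at 2 months (others 7.85 to 7.92). The macrophage mean was 7.63 in cKO replicate 4 at P10 (others 7.28 to 7.31).

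The cKO effect differed between 2 months and P10 beyond the test's threshold in 15 of the genes looked at, 2 of them among the 34 endothelial members. Over all genes 12.3% were called in this contrast. The other genes looked at were picked after their values were seen, so 15 is not a count to set beside that share. The difference, 2 months minus P10, was 1.31 for *S1pr1* and 0.69 for *Pecam1* among the endothelial members. It was 0.79 for *Ets1*, -1.38 for *Palmd*, 1.09 for *Vcam1*, -0.68 for *Ackr1*, -1.92 for *Slco1a4*, -1.17 for *Mbp* and 2.51 for *Aif1*. It was 1.60 for *Rasgrp3*, -0.66 for *Sema3g*, 1.62 for *Mgp*, -1.13 for *Reln*, -0.80 for *Col1a1* and 1.56 for *Cdk1*.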

How the results depend on the processing

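Beyond leaving out arrays, the counts and medians over the 34 endothelial genes stayed within a set tolerance in 134 of 144 cases. The tolerance was a fold limit for counts and the SD between array means for medians, so values within it could still differ. For the difference between ages a median within it could also change sign. The count of genes whose cKO effect differed between the ages was 1 lower (*Ecscr*), in place of 0, with the 5000 most variable clusters alone, with array weights and with the replicate block, and the count of higher genes was 1 with quantile normalization and 4 with array weights, in place of 2. With age in cKO nerves, 1 gene was higher in place of 0 with the filter on dim genes, with array weights, with the replicate block, with the muscle covariate and with only the 8 arrays of the genotype. The dim and the variable filter each kept 27 of the 34 genes, so fewer were tested. No called change turned its direction. Of other calls under alternatives, *Vwf* at 2 months was lost with all 16 arrays in a single fit (limma adjusted p = 0.0563), *Gpihbp1* at 2 months with the muscle covariate (adjusted p = 0.0592) and *Pecam1* for the difference between ages with quantile normalization (adjusted p = 0.072). *Cdh5* at 2 months was gained with array weights (adjusted p = 0.0472). With age in control nerves, *Tek* was lost with quantile normalization, array weights, the control arrays alone and the muscle covariate (adjusted p from 0.0552 to 0.274), *Esam* in these and with median centring, no trend and the replicate block (0.0528 to 0.176), *Gpihbp1* with median centring, quantile normalization, the control arrays alone and the muscle covariate (0.0526 to 0.123), *Myct1* with array weights, the control arrays alone and the muscle covariate (0.0525 to 0.267), *Emcn* with median centring (0.0526), and *Cyyr1* (0.15) and *S1pr1* (0.079) with the muscle covariate, while *Esm1* was gained among the variable clusters (0.0462). In cKO nerves *Cyyr1* (0.0605) and *Sox18* (0.115) were lost and *Sox17* (0.0188) gained with the muscle covariate. The cause of these changes was not tested.

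Leaving out each array gave 16 to 21 genes lower and 0 higher at P10, with medians from -0.58 to -0.50, and 10 to 14 lower and 1 higher at 2 months, with medians from -0.34 to -0.16. The difference between ages had 0 to 1 lower and 1 to 3 higher (medians -0.01 to 0.17). Age gave 19 to 22 lower and 0 to 1 higher in cKO nerves (medians -0.62 to -0.50), and 24 to 30 lower and 0 higher in control nerves (medians -0.78 to -0.64).

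Deviations of same-numbered arrays of the genotypes had correlations of 0.19, -0.15, 0.06 and 0.05 at P10, and 0.05, 0.10, 0.03 and 0.10 at 2 months. For arrays of unlike number they ran from -0.21 to 0.24 at P10 and from -0.10 to 0.07 at 2 months. With 4 arrays per group these values cannot decide whether the numbers pair the samples, and the labels state no pairing. With the replicate block, 17 genes were lower at P10 and 12 lower and 1 higher at 2 months, *Flt1* (adjusted p = 0.0521) and *Aplnr* (0.0549) being lost at P10 and *Gpihbp1* (0.0707) at 2 months.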
